A study of Drosophila melanogaster with 2 samples.

Results

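The vacuolar H+-ATPase (V-ATPase) genes of the fly were taken as every gene whose symbol starts with Vha in the deposited table, which gave 19 of 14794 genes. Both libraries are single samples of polyadenylated RNA from flies described as whole adult males, 1 to 3 days after eclosion. The heph2 library is of males homozygous for heph2, a P element insertion in an intron of hephaestus (heph), the gene of the Drosophila polypyrimidine tract-binding protein, and the control library is of heph2/TM3 males. The controls thus also carry 1 heph2 chromosome, over the balancer TM3, a rearranged chromosome 3 that does not recombine with its partner. RNA came from whole animals, so fewer cells of a type and less RNA per cell cannot be told apart. The number of flies in each library was not given in the sources used here.

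The V-ATPase is a rotary proton pump of 2 sectors. The peripheral V1 sector hydrolyses ATP, and the membrane sector Vo moves protons from the cytosol into the lumen of lysosomes, endosomes, synaptic vesicles and secretory vesicles. In insect epithelia such as the Malpighian tubule, the renal organ of the fly, the pump also sits in the apical plasma membrane and energises ion and fluid transport. Many subunits of the fly are encoded by several genes, of which usually 1 is broadly expressed and the others are confined to particular tissues, the testis among them. The comparison asks how the levels of these genes stood in the 2 libraries, between V1 and Vo and between the broadly expressed subunits and the testis-biased paralogs.

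Levels are given in FPKM, a count of fragments set against both the length of the transcript and the depth of sequencing, so that they may be compared between genes. Each difference is the log2 of heph2 FPKM divided by control FPKM with nothing added to either, and a gene was compared where neither value was 0 and their mean reached 1. All 19 Vha genes were among the 11962 genes compared. With 1 library per genotype there is no replicate check, no test was made and no p-value is given. Reads were estimated from the FPKM that 1 read gives, and between 269 and 34101 estimated reads stood behind each value. Brackets after a log2 ratio give its exact (Clopper-Pearson) 95% interval from these reads, which covers counting error only. The targeted gene, heph, was at 44.0 FPKM in the control and at 27.2 FPKM, 61.8% of that level, in heph2. This value takes in the exons on both sides of the insertion, so it does not measure the full-length transcript.

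None of the 19 Vha genes differed by 1.5-fold in the deposited values. Only after centring on ribosomal protein genes were 3 of them at least 1.5-fold lower, as were 33.4% of all genes. As deposited, 9.16% of all genes compared were at least 1.5-fold higher and 7.26% at least 1.5-fold lower in heph2. At least 2-fold higher and lower as deposited were 2.79% and 2.44%, respectively, against 0 Vha genes in each case. The log2 ratios of the Vha genes lay between -0.28 for Vha100-2 and 0.57 for VhaM9.7-2, a range that held 69.3% of all genes. Their median was 0.07 and that of all genes was 0.01. The central band of ratios, from -0.24 to 0.29, held 50% of all genes and 15 of the 19 Vha genes.

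The sign of the log2 ratio depended on the scaling for 12 of the 19 genes. As deposited, 12 Vha genes were higher in heph2 and 7 lower, whereas 3 were higher and 16 lower after scaling on mapped reads, and likewise after centring on ribosomal protein genes. Of all genes, 51.5% were higher and 48.5% lower as deposited. Their median log2 ratio was -0.27 after scaling on mapped reads and -0.43 after centring on ribosomal protein genes, so most of them were then lower too. The 3 Vha genes that were higher under every scaling tried were VhaM9.7-2, Vha14 and Vha13. The 4 that were lower under every scaling were Vha100-2, Vha100-3, Vha68-1 and Vha16-2, the last of them by less than its counting interval in the deposited values. Against genes of similar length, Vha68-1 at -0.03 [-0.08 to 0.02] and Vha100-3 at -0.05 [-0.14 to 0.04] also had intervals that included 0.

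**Figure D1:**
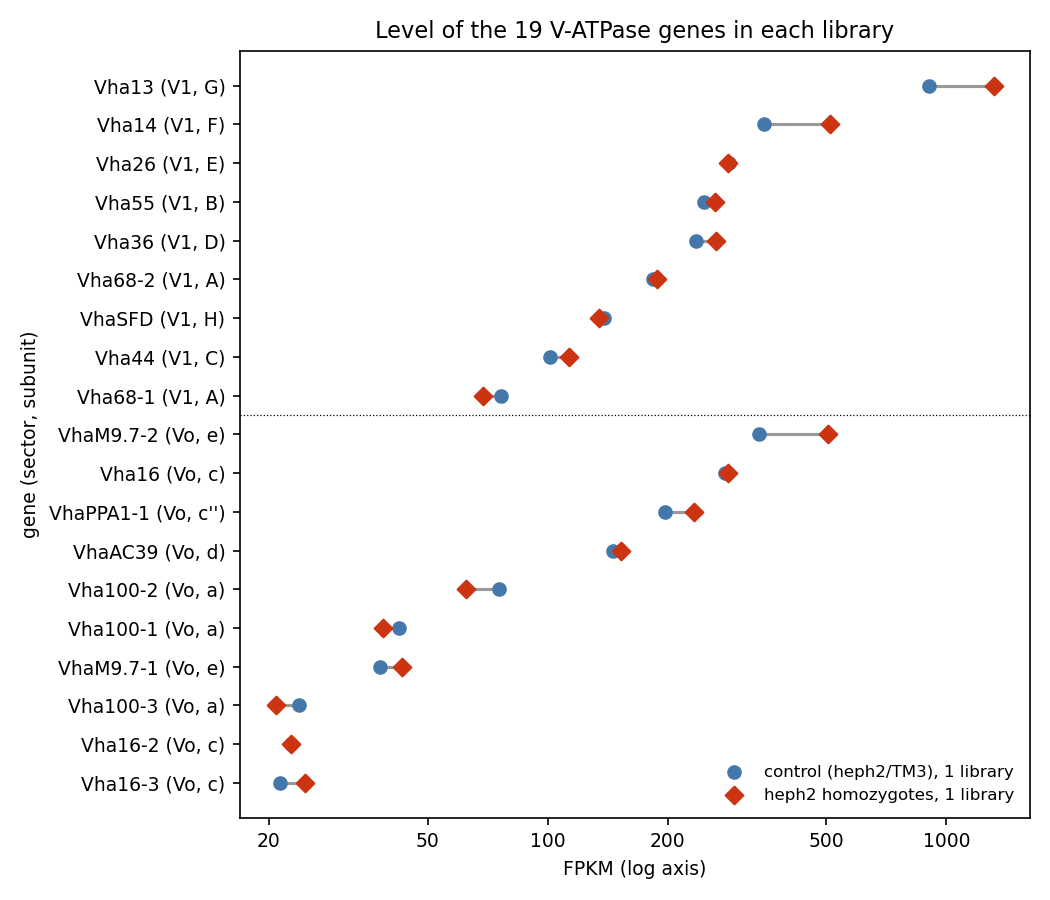
FPKM (log axis) of the 19 Vha genes in the control library (circles) and the heph2 library (diamonds), with V1 genes above the dotted line and Vo genes below it, each ordered by its control level. The paired points are close for most genes, and they are farthest apart for Vha13, Vha14 and VhaM9.7-2.

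In the V1 sector, 9 Vha genes were listed and all of them are broadly expressed subunits. Vha13 (FBgn0026753, chromosome 3R from 15468980 to 15470126), subunit G of the peripheral stalks, had the highest level of all 19 genes. Its FPKM was 907 in the control and 1316 in heph2, a 1.45-fold difference with a log2 ratio of 0.54 [0.51 to 0.56]. Vha14 (FBgn0010426, chromosome 2R from 11566931 to 11567585; Vha14-1 in current annotation), subunit F of the central rotor, had 349 FPKM in the control against 510 FPKM in heph2, a log2 ratio of 0.55 [0.50 to 0.59]. Both genes were thus higher in heph2 by an amount well above their counting error. Of all genes compared, 89.2% had a lower ratio than Vha13 and 89.6% a lower ratio than Vha14.

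The genes of the catalytic core had smaller ratios than Vha13 and Vha14 as deposited, and the gap was narrower against genes of similar transcript length. Vha68-2 (FBgn0020367, chromosome 2L from 12974322 to 12978615), the main gene of catalytic subunit A, had 184 and 188 FPKM in control and heph2, a log2 ratio of 0.03 [-0.003 to 0.06]. Vha55 (FBgn0005671, chromosome 3R from 8449484 to 8453551), the only gene of subunit B, which forms the hexameric head together with subunit A, had 247 and 263 FPKM, a log2 ratio of 0.09 [0.06 to 0.12]. On mapped reads the ratios of Vha68-2 and Vha55 were -0.25 and -0.19, and against genes of similar length they were 0.16 and 0.22, where Vha14 had 0.16 and Vha13 0.23. Vha68-1 (FBgn0020368, chromosome 2L from 13000765 to 13004142), a further subunit A gene, had 76.6 and 68.7 FPKM, a log2 ratio of -0.16 [-0.21 to -0.11]. The 2 subunit A genes therefore stood on opposite sides of 0 in the deposited values, and with scaling on mapped reads both were lower.

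The other V1 subunits also stood within the central band of all genes. Vha26 (FBgn0015324, chromosome 3R from 1417453 to 1420429), the stalk subunit E that pairs with subunit G, had 285 and 283 FPKM, a log2 ratio of -0.01 [-0.04 to 0.02]. As deposited, the levels of these stalk partners diverged, since Vha13 was 1.45-fold higher in heph2 while the value of Vha26 was 0.993-fold. Against genes of similar length the gap was narrower, with log2 ratios of 0.23 for Vha13 and 0.07 for Vha26. Vha36 (FBgn0022097, chromosome 2R from 11428922 to 11430003; now Vha36-1), subunit D and the rotor partner of subunit F, had 235 and 265 FPKM, a log2 ratio of 0.17 [0.13 to 0.22]. Vha44, subunit C, had 102 and 113 FPKM, a log2 ratio of 0.16 [0.12 to 0.20]. VhaSFD, subunit H, which in yeast silences the ATPase of detached V1, had 138 and 135 FPKM, a log2 ratio of -0.04 [-0.08 to 0.00057]. The loci of Vha44 (FBgn0020611) and VhaSFD (FBgn0027779) are listed as regions shared with other genes, on chromosomes 2R and 2L, and 3.68% of the exonic bases of Vha44 overlap those of Hmgs.

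In the Vo sector, 10 Vha genes were listed, 5 of them broadly expressed. VhaM9.7-2 (FBgn0028663, chromosome 3L from 21532946 to 21533798; now VhaM9.7-b), the small membrane subunit e, had 339 FPKM in the control against 504 FPKM in heph2. Its log2 ratio of 0.57 [0.54 to 0.61] was the highest of the 19 genes, and 90.5% of all genes had a lower ratio. The proteolipid ring carries the protons across the membrane. Vha16 (FBgn0004145, chromosome 2R from 2512747 to 2520633; now Vha16-1), the main proteolipid c, had 279 and 283 FPKM, a log2 ratio of 0.02 [-0.01 to 0.04]. VhaPPA1-1 (FBgn0028662, chromosome 3R from 10728048 to 10729796), proteolipid c'' of the same ring, had 197 and 233 FPKM, a log2 ratio of 0.24 [0.20 to 0.28]. VhaAC39 (FBgn0028665, chromosome X from 3774773 to 3777004; now VhaAC39-1), subunit d, which joins the rotor to the ring, had 146 and 153 FPKM, a log2 ratio of 0.07 [0.02 to 0.11]. With scaling on mapped reads, the ratios of Vha16, VhaPPA1-1 and VhaAC39 were below 0, and against genes of similar length all 3 were above 0, at 0.16, 0.13 and 0.08.

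All 3 Vha genes of subunit a, the large membrane subunit with the proton half-channels, were lower in heph2 as deposited, although Vha100-1 was not when set against genes of similar length. Vha100-2 (FBgn0028670, in a region of chromosome 3R listed for 3 genes), the broadly expressed one, had 75.6 and 62.2 FPKM, a log2 ratio of -0.28 [-0.33 to -0.23], the lowest of the 19 genes. Vha100-1 (FBgn0028671, in a region of chromosome 3R listed for 2 genes), which is known for its roles in neurons, had 42.3 and 38.7 FPKM, a log2 ratio of -0.13 [-0.19 to -0.07]. Vha100-3 (FBgn0028669, in a region of chromosome 2R listed for 3 genes), the testis-biased one, had 23.8 and 20.8 FPKM, a log2 ratio of -0.19 [-0.28 to -0.11]. Vha100-2 and Vha100-3 were lower under every scaling, though relative to genes of similar transcript length the interval of Vha100-3 included 0. The ratio of Vha100-1 was 0.01 relative to such genes.

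The remaining Vo genes were paralogs of low level. Vha16-3 (FBgn0028667, chromosome 3L from 11466391 to 11467072) had 21.3 and 24.6 FPKM, from 406 and 303 estimated reads, and its log2 ratio of 0.21 had a counting interval from -0.01 to 0.43. Vha16-2 (FBgn0028668, chromosome 3L from 11468058 to 11468652), the neighbouring paralog 985 bases away, had 22.7 FPKM in each library from 417 and 269 reads. In the deposited values both counting intervals included 0. On mapped reads the ratio of Vha16-2 was -0.28 [-0.51 to -0.06], and that of Vha16-3 was -0.07 [-0.29 to 0.15]. In BDGP6, an antisense RNA, asRNA:CR46049, covers 84.5% of the exonic bases of Vha16-2, and without knowledge of the strand its reads cannot be told apart from those of Vha16-2. VhaM9.7-1 (FBgn0028664, in a region of chromosome 3L listed for 6 genes; now VhaM9.7-c), a subunit e paralog, had 38.1 and 43.1 FPKM, a log2 ratio of 0.18 [0.05 to 0.31], which was below 0 on mapped reads.

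**Figure D2:**
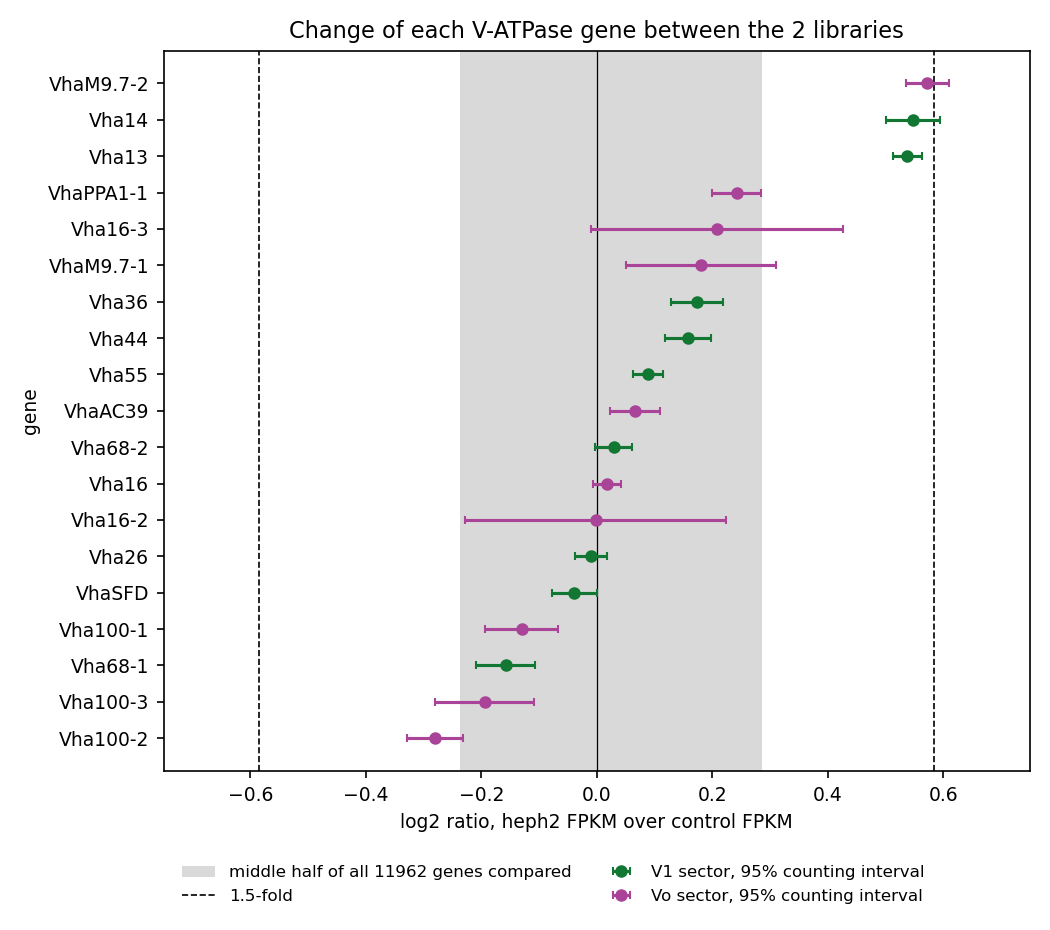
Log2 ratio of heph2 FPKM to control FPKM for the 19 Vha genes, with 95% counting intervals and the sector as colour; the grey band holds 50% of all 11962 genes compared and the dashed lines mark 1.5-fold. VhaM9.7-2, Vha14 and Vha13 lie to the right of the band and Vha100-2 to its left, and with scaling on mapped reads every point would move 0.28 to the left, which leaves 3 above 0.

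The ranges of the sectors overlapped. The median log2 ratio was 0.09 over the 9 V1 genes, ranging from -0.16 to 0.55, and 0.04 over the 10 Vo genes, ranging from -0.28 to 0.57. Both medians were below 0 when scaled on mapped reads, at -0.19 and -0.24, and against genes of similar length they were 0.16 for V1 and -0.02 for Vo. The order of the sectors turned for the genes alone in their locus entry, with 0.09 for V1 and 0.14 for Vo, and with the V-ATPase genes under other symbols added, with 0.09 and 0.16. The summed FPKM of the V1 genes was 2524 in the control and reached 3142 in heph2, a 1.24-fold difference, and that of the Vo genes was 1185 and 1385, a 1.17-fold difference. The summed FPKM of all genes was 1.22-fold in heph2, and on mapped reads the V1 sum was 1.02-fold and the Vo sum 0.962-fold, so that the direction of Vo turned. The ratio of the V1 sum to the Vo sum was 2.13 in the control and 2.27 in heph2. A common factor for a library does not move it, whereas centring by transcript length can. Without the 3 genes of highest ratio, a choice made after their values were seen, this ratio of sums was 1.4998 and 1.4949.

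The difference in the summed level of the Vha genes was mostly that of these 3 genes, picked for their ratios, and it nearly vanished on mapped reads. Over all 19 genes the sum was 3709 FPKM in the control against 4527 FPKM in heph2. Vha13, Vha14 and VhaM9.7-2 together accounted for 736 of the 818 FPKM of difference, or 89.9%. On mapped reads the sum in heph2 was 3727 FPKM, 1.005-fold, with the 3 genes at 1.20-fold and the other 16 at 0.855-fold. As deposited, the sum of the other 16 genes was 2114 FPKM in the control against 2196 FPKM in heph2, a 1.04-fold difference. The 19 genes made up 0.326% of all FPKM in the control and 0.327% in heph2. The order of the 19 levels was nearly the same in the libraries, with 13 genes at the same rank and a shift of at most 2 ranks.

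The 3 genes of highest ratio have short transcripts, with a median length of 823 nucleotides for Vha13, 659 for Vha14 and 957.5 for VhaM9.7-2. Across all genes of these libraries the log2 ratio moved with transcript length, from a median of 0.33 over 2822 genes of up to 1000 nucleotides to -0.15 over 4751 genes of more than 2000 nucleotides. The ratio was also lower for longer Vha genes. The median was 0.37 over the 6 Vha genes of up to 1000 nucleotides, 0.17 over the 3 between these limits and -0.02 over the 10 of more than 2000 nucleotides. The correlation between the log2 ratio and the log10 of length was -0.70 (Pearson) and -0.70 (Spearman) across the 19 Vha genes, and -0.29 and -0.45 across 11767 genes of known length. Across the 15 V-ATPase genes listed under other symbols, described further on, both coefficients were -0.14, and their medians in the 3 length classes were 0.17, 0.01 and 0.35. These points are genes of the same 2 libraries and not replicates. The part of transcript length in the differences between these genes was not tested.

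Each ratio was next set against the median of genes of similar length, in 20 bins of 585 to 593 genes, which removes any common scaling. Relative to this median the log2 ratio was 0.30 for VhaM9.7-2, 0.23 for Vha13 and 0.16 for Vha14, so the 3 genes still stood above it, but by less. Vha44 stood 0.28 above and Vha55 0.22 above, 2 genes with long transcripts whose deposited ratios were small. Of the subunit a genes, Vha100-2 stood below the median of its length, at -0.14 [-0.18 to -0.09], while Vha100-3 was at -0.05 and Vha100-1 at 0.01. Vha16-2 stood farthest below, at -0.39 [-0.61 to -0.16], followed by Vha16-3 at -0.18, Vha100-2 and VhaM9.7-1 at -0.13. For 10 genes the counting interval lay wholly above the median of their length, for 3, Vha16-2, Vha100-2 and Vha36, wholly below, and for 6 it included it. These intervals are narrow where reads are many. The same count was not made over all genes, so these counts do not set the Vha genes apart from others.

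**Figure D3:**
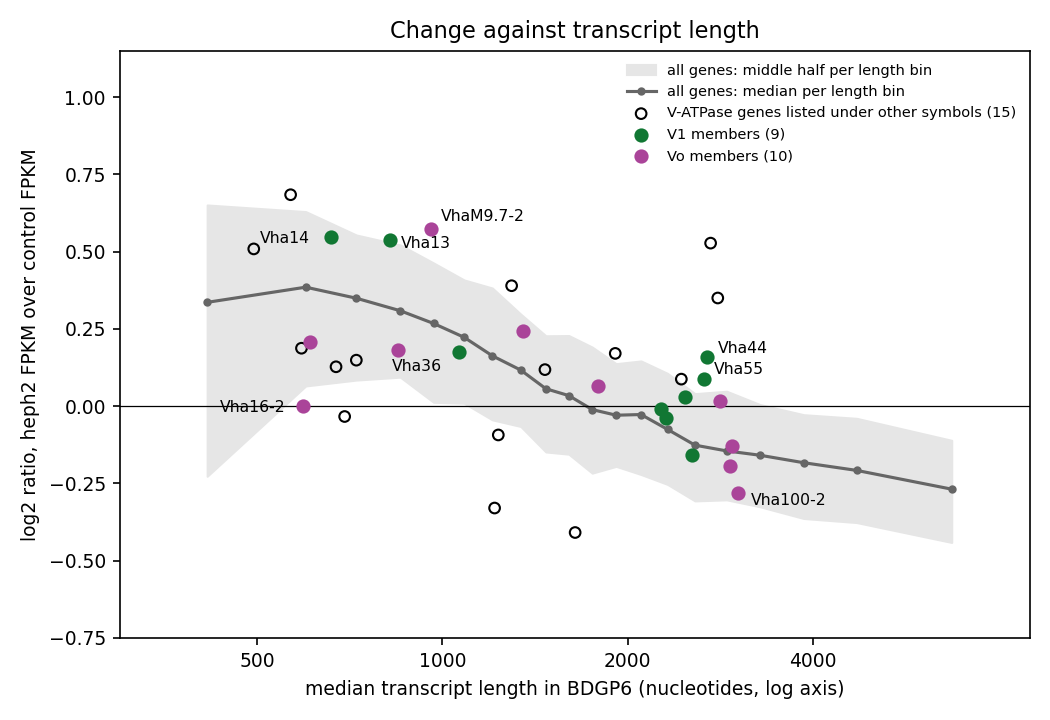
Log2 ratio of heph2 FPKM to control FPKM against median transcript length (log axis) for the V1 genes, the Vo genes and the 15 V-ATPase genes under other symbols (open circles); the line gives the median of all genes in 20 length bins, and the band their lower and upper quartiles. The Vha genes of up to 1000 nucleotides have a median of 0.37 and those of more than 2000 nucleotides a median of -0.02, and the line falls from 0.34 in the first bin to -0.27 in the last.

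The levels of the 14 broadly expressed Vha genes and of the 5 others did not overlap. Each of the 14 had at least 75.6 FPKM in the control, while the 5 others, Vha100-1, Vha100-3, Vha16-2, Vha16-3 and VhaM9.7-1, had at most 42.3 FPKM. The gap did not hold for V-ATPase genes under other symbols. There, VhaM9.7-d (CG14909) had 227 FPKM and Vha68-3 (CG5075) 89.4 FPKM in the control, neither taken as broadly expressed. Relative to genes of similar length, 11 of the 14 broadly expressed genes were above the median, by a median of 0.14, and 1 of the 5 others was, with a median of -0.13. Under other symbols, 2 of 6 testis-biased paralogs were above it, with a median of -0.21, and 4 of 7 further paralogs, with a median of 0.17. Abundant genes as a whole lay on the same side as the broadly expressed Vha genes. Of 2196 genes with a control level of at least 75.6 FPKM, 62.9% were above the median of their length, by a median of 0.10, and of 1873 genes with levels like those of the 5 others, 52.2% were.

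Most testis-biased paralogs are listed under other symbols in the deposited table, so these were added for this comparison. A further 15 V-ATPase genes were found through their identifiers or synonyms, 12 of them subunit paralogs and 3 accessory genes. The 7 genes taken as testis-biased, from background knowledge and not from these data, were Vha100-3 and the genes now called Vha68-3 (CG5075), Vha36-2 (CG13167), Vha14-2 (CG1076), Vha16-5 (CG6737), VhaPPA1-2 (CG7026) and VhaAC39-2 (CG4624). Their median log2 ratio was 0.09, with 4 higher and 3 lower, and that of the 16 broadly expressed genes was 0.10, with 12 higher and 4 lower. On mapped reads both medians were below 0, at -0.19 and -0.18. Relative to genes of similar length the medians were -0.20 for the testis-biased and 0.14 for the broadly expressed genes.

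Vha68-3 (CG5075), which lies 170 bases from Vha68-2, was the most abundant testis-biased paralog, with 89.4 FPKM in the control against 94.97 FPKM in heph2. Vha36-2 (CG13167) had 59.7 and 78.2 FPKM, a log2 ratio of 0.39 [0.31 to 0.47], the largest of the 7. The other 4 genes of this group under CG symbols had 9.96 to 23.3 FPKM in the control, and each of their counting intervals included 0 as deposited. On mapped reads the intervals of Vha14-2, from -0.54 to -0.09, and VhaAC39-2, from -0.59 to -0.16, lay below 0. Against genes of similar length those of Vha14-2, VhaAC39-2 and VhaPPA1-2 lay below 0, and that of Vha16-5 included it. Vha14-2 (CG1076) had 18.8 and 18.4 FPKM while its broadly expressed partner Vha14 was 1.46-fold higher, so that it stood at 5.40% of Vha14 in the control and at 3.61% in heph2. Vha100-3 stood at 31.5% of Vha100-2 in the control and at 33.5% in heph2. Over the 7 subunits, the ratio of the testis-biased paralog to its broadly expressed partner was higher in heph2 for 4 and lower for 3, with changes between -0.58 and 0.22 on the log2 scale. This ratio does not depend on the scaling of the libraries, but it makes no allowance for transcript length. Against genes of similar length, Vha16-5 (725 nucleotides) stood at -0.20 and Vha16 (2824.5 nucleotides) at 0.16. That is the reverse of their deposited order, while the other pairs kept theirs.

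Markers of the testis and of other tissues also differed between the libraries. Of 20 testis markers, 19 were listed, with a summed 12067 FPKM in the control and 19222 FPKM in heph2, single values between 1.36 and 3688 FPKM and none at 0. Of these 13 were higher and 6 lower as deposited, with a median log2 ratio of 0.55, and of 0.28 relative to genes of similar length. The 8 Malpighian tubule markers had a median of -0.18 with a summed 191 and 142 FPKM, and the 10 midgut markers listed had a median of 0.33 with a summed 3094 and 4046 FPKM. Against genes of similar length these medians were -0.10 and 0.09. The 7 neuron markers had a summed 99.1 and 91.2 FPKM, and 6 of them were compared, with a median of -0.14, and of 0.03 against genes of similar length. The 6 eggshell markers, of female follicle cells, had a summed 199 FPKM in the control and 2.77 FPKM in heph2. Single values were 8.96 to 69.3 FPKM in the control and 0.22 to 0.79 FPKM in heph2, although both libraries are described as males. Whether the control held female tissue was not tested, and such tissue would bear on every ratio given here. The part of any of these tissues in the levels of the V-ATPase genes was not tested.

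The main gene of each subunit was the same in both libraries, while the shares of some minor paralogs moved more in proportion. For subunit A, Vha68-2 gave 52.6% of the summed FPKM in the control and 53.5% in heph2, Vha68-1 gave 21.9% and 19.5%, and Vha68-3 gave 25.5% and 27.0%. For subunit a, Vha100-2 gave 48.5% and 44.3%, Vha100-1 gave 27.2% and 27.6%, and Vha100-3 gave 15.3% and 14.8%. The rest of subunit a came from Vha100-5 (CG12602) at 6.97% and 9.87% and Vha100-4 (CG7678) at 2.11% and 3.38%. For the proteolipid c, Vha16 gave 81.0% and 78.8%, and Vha16-4 (CG9013) gave 2.88% and 4.44%. Within subunit D, the share of Vha36-3 (CG8310) was 12.0% in the control and 8.55% in heph2. Subunit e came mainly from 2 genes, VhaM9.7-2 at 50.3% and 53.1% and VhaM9.7-d (CG14909) at 33.6% and 33.9%. No share moved by more than 4.53 percentage points, a value reached by the accessory genes VhaAC45 (CG8029) and VhaAC45RP (CG31030).

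**Figure D4:**
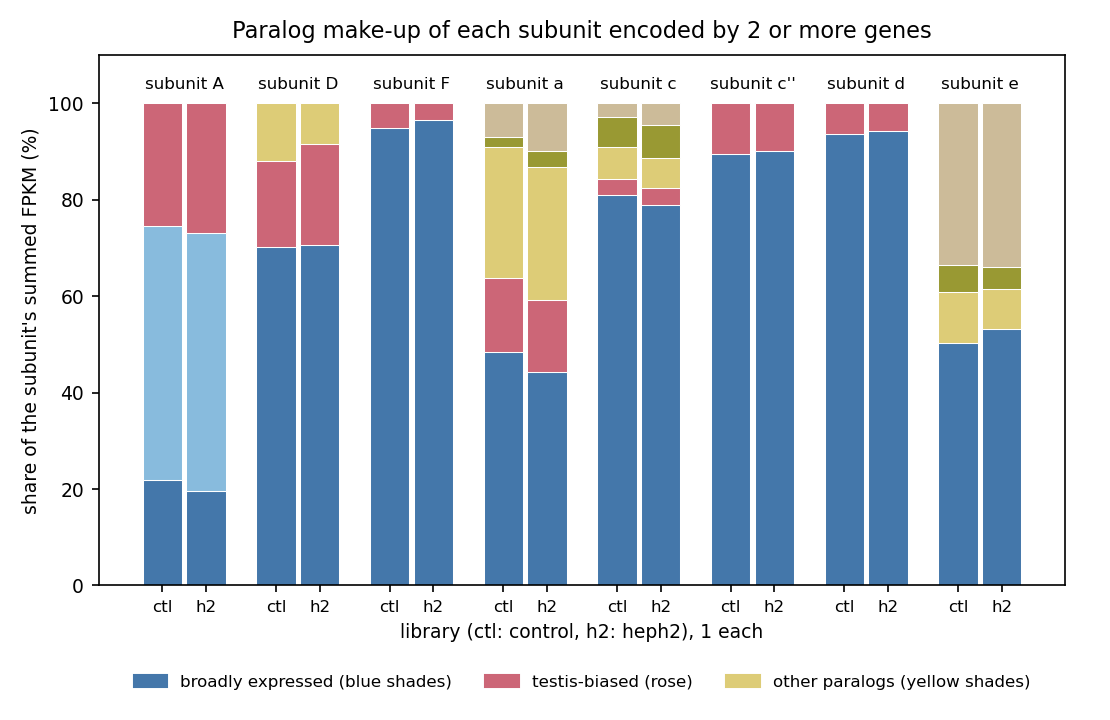
Share (%) of each gene in the summed FPKM of its subunit, for the 8 subunits encoded by 2 or more genes, in the control library (left bar) and the heph2 library (right bar), with broadly expressed genes in blue, testis-biased paralogs in rose and other paralogs in yellow shades. The main gene is the same in both bars of each pair, for example Vha16 with 81.0% and 78.8% in subunit c.

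Summed over paralogs, the subunits fell into a wide order of levels. Subunit G, from Vha13 alone, was highest with 907 FPKM in the control, followed by subunit e with 675 FPKM, subunit F with 368 FPKM and subunit A with 350 FPKM. Subunit C was lowest with 102 FPKM in the control and 113 FPKM in heph2. The sums of subunits G, F and e were 1.45-fold, 1.44-fold and 1.41-fold higher in heph2, and the main gene of each was higher under every scaling. Subunit A, with 350 and 352 FPKM, and subunit E, with 285 and 283 FPKM, differed least as deposited, whereas on mapped reads subunit c'' did, at 0.966-fold against 0.827-fold for A and 0.817-fold for E. Subunit a, with 156 FPKM in the control and 140 FPKM in heph2, was lower as deposited, at 0.9003-fold, and its main gene Vha100-2 was lower under every scaling.

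Among the V-ATPase genes under other symbols outside the testis-biased group, 1 of 9 was at least 1.5-fold higher as deposited, where 9.16% of all genes were, and it no longer was on mapped reads or against genes of similar length. Vha16-4 (CG9013), a proteolipid c paralog, had 9.93 and 16.0 FPKM, from 169 and 176 estimated reads, a log2 ratio of 0.68 [0.38 to 1.003], and its interval reached below the 1.5-fold line. Its ratio was 0.40 on mapped reads and 0.30 against genes of similar length. Vha100-4 (CG7678), which lies 513 bases from the region listed for Vha100-2, had 3.29 and 4.75 FPKM, a log2 ratio of 0.53 [0.32 to 0.74], where Vha100-2 had -0.28. Against genes of similar length, the ratio was 0.67 for Vha100-4 and 0.49 for Vha100-5 (CG12602), a further subunit a paralog. In BDGP6, an antisense RNA, asRNA:CR44144, covers 18.1% of the exonic bases of Vha100-5. Vha100-4 is in a region listed for 2 genes, and 1.72% of its exonic bases overlap those of cona. The accessory proteins VhaAC45 (CG8029) and ATP6AP2 (CG8444) had 199.97 and 203 FPKM in the control, with log2 ratios of 0.17 and 0.12. VhaAC45RP (CG31030), the paralog of VhaAC45, had 36.3 and 27.3 FPKM, a log2 ratio of -0.41 [-0.51 to -0.31], the lowest of all 34 V-ATPase genes.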

How the data were processed

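Polyadenylated RNA gave 1 library of single 50-base reads per genotype. The authors mapped these with TopHat2 2.0.4 to FlyBase r5.44, and the deposited FPKM values of each gene came from Cufflinks 2.0.0. Their own log2 ratio, also deposited, was not used. Positions are in r5.44, with 1 added to each start, since the locus length equalled that of BDGP6 for 1522 of 9256 genes alone in their locus with a start counted from 0 and for 155 with a start counted from 1.

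All ratios were computed from FPKM over the whole table, with Python 3.11.15, numpy 2.4.6, pandas 2.3.3, scipy 1.17.1 and matplotlib 3.10.9. Transcript lengths were medians over the BDGP6 transcripts of a gene, matched by identifier for 13462 genes, by symbol for 411 and by synonym for 444. All 19 Vha genes matched, 11 of them by identifier. A read on a transcript of 1 kilobase was worth 0.0215 FPKM (control) or 0.0333 FPKM (heph2), the step that brought 60.4% of 414 and 63.3% of 479 low genes within 0.1 of a whole read, where chance gives 20%. Reads used this step and a fragment length of 200 ± 80 bases, an assumption, and are approximate. The script was tested on simulated libraries.

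The deposited values were compared with a pseudocount of 0.1 or 1, no minimum FPKM or one of 5, centring on all genes, on 82 cytosolic ribosomal protein genes or on genes of similar length, scaling on the mapped reads, and genes alone in their locus entry. The genes, lists and rules were chosen with earlier results of these data known. Every Vha gene is named. Promoter and protein sequences were not analysed here.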

Additional observations from a re-analysis of the deposited data

How the results depend on the processing

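No paired analysis was possible because each genotype has 1 library, and no replicate could be left out. The counts of Vha genes past 2-fold stayed at 0 under every alternative. Those past 1.5-fold did too, except after centring on ribosomal protein genes. There, 3 Vha genes and 33.4% of all genes were at least 1.5-fold lower. That centring took 0.44 from every log2 ratio and scaling on mapped reads took 0.28, and the median of all genes moved by the same amounts. Centred on the ribosomal protein genes, the median log2 ratio was -0.38 for the 19 Vha genes, -0.35 for V1, -0.40 for Vo, -0.34 for the broadly expressed and -0.35 for the testis-biased genes. Scaled on mapped reads, these medians were -0.21, -0.19, -0.24, -0.18 and -0.19, in the same order. Relative to genes of similar length, the median was 0.16 for V1, -0.017 for Vo and -0.20 for the testis-biased genes. Over the genes alone in their locus entry, the median of Vo was 0.14 and that of V1 0.09. With the V-ATPase genes under other symbols added, a step chosen after seeing the data, the median was 0.12 over 34 genes and 0.16 over 18 Vo genes. Vha100-3, the only testis-biased gene under a Vha symbol, had -0.19. The pseudocounts, the minimum FPKM and centring on all genes left each of the 19 log2 ratios inside its counting interval.

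Depth limits the low paralogs most. The counting interval of the log2 ratio included 0 for 6 Vha genes as deposited. It was wide for Vha16-2 and Vha16-3, with at most 417 estimated reads in a library. For Vha68-2, Vha26, VhaSFD and Vha16, with far more reads, it was narrow and the ratio itself lay near 0. The interval does not cover differences between flies of the same genotype, which 1 library per genotype cannot show.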

Other observations

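Other genes of the acidic compartments were read from a fixed list of 16 genes, of which 15 were compared. Of these 6 were higher and 9 lower as deposited, with a median log2 ratio of -0.10, and of 0.06 relative to genes of similar length. Npc2a, which acts in the export of cholesterol from the lysosome, had 221 FPKM in the control against 513 FPKM in heph2. Its log2 ratio was 1.21 [1.16 to 1.27], and it was the only gene of the list past 1.5-fold as deposited. Of all genes compared, 9.16% were at least 1.5-fold higher and 7.26% at least 1.5-fold lower as deposited. The transcript of Npc2a has 651 nucleotides, and its ratio was 0.83 against genes of that length. The lysosomal proteases cathD and Cp1 had log2 ratios of 0.20 and 0.29, and the lysosomal membrane gene Lamp1 (CG3305) had 309 and 389 FPKM, a log2 ratio of 0.33. The protease gene CG10992 and the membrane gene spin had 0.04 and -0.04, and Npc1a, the partner of Npc2a, had -0.23 [-0.29 to -0.16]. On mapped reads the ratio of cathD is below 0, and against genes of similar length that of Npc1a was -0.04. The lysosomal channel gene trpml was listed at 0.00618 FPKM in the control and at 0 in heph2, less than 1 read, and gives no comparison.

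The 2 assembly factors of the pump, Rbcn-3A and Rbcn-3B, had 5.28 and 5.35 FPKM in the control, with log2 ratios of -0.39 [-0.48 to -0.29] and -0.16 [-0.28 to -0.04]. Their transcripts are long, with 11139 and 6390.5 nucleotides, and against genes of such length the ratios were -0.12 and 0.11. Mitf, a transcription factor known to act on V-ATPase genes in the fly, had 18.3 and 16.6 FPKM, a log2 ratio of -0.14 [-0.22 to -0.05], which was 0.05 against genes of similar length. The proton antiporter genes Nha1 and Nha2 had log2 ratios of -0.14 and 0.00, and the 3 chloride channel and transporter genes of the list lay between -0.24 and -0.10, or between -0.06 and 0.06 against genes of similar length.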
